A study of Arabidopsis thaliana with 12 samples.

Results

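The plastid-encoded genes of *Arabidopsis thaliana* were followed through an RNA-seq experiment on the stress hormone abscisic acid (ABA) in the wild type (WT, Col-0) and in nup85, a T-DNA line of the nucleoporin gene *NUP85*. All rows of the count table whose gene ID starts with ATCG, the prefix of the plastid genome, were taken, which gave 133 members of 33602 rows. The other rows were 33323 nuclear and 146 mitochondrial ones. Seedlings of both genotypes were 7 days old and spent 3 h in liquid medium, either without ABA (mock) or with 50 µM ABA, which makes 4 groups with 3 libraries in each. Nothing in the labels says whether the replicates came from separate cultures, so that the p-values measure the spread between these libraries, which may be technical.

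Plastid genes are transcribed by a bacterial-type RNA polymerase, whose core is encoded in the plastid and whose promoter-binding sigma factors are encoded in the nucleus, and by a phage-type polymerase that is encoded in the nucleus. Their products are the rRNAs and tRNAs of the plastid, part of its ribosomal proteins, and core subunits of the photosynthetic complexes. Unlike nuclear mRNAs, plastid transcripts carry no stable poly(A) tail, and short tails mark them for decay. Reads from them in a library made from poly(A) RNA therefore depend on how much other RNA was carried over. How RNA was selected is not given in the sources used here, and the labels name total RNA as the extract. For this reason each member is described on 2 scales below. The level is its counts divided by all counts of the library and scaled to CPM, the usual counts-per-million unit. The plastid share is its percent of the counts on all plastid rows of the same library.

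The count table gives ATCG IDs without names, and the reference annotation (RefSeq, TAIR10.1) lists the plastid genes under other tags. Of the 133 IDs, 7 could be named, because the annotation of a nuclear relative mentions the ID and the relative's sequence then matched a plastid gene. Those described here are *ndhJ* (ATCG00420) and *ndhK* (ATCG00430), subunits of the NDH complex of cyclic electron flow, *cemA* (ATCG00530), a protein of the plastid envelope, *rpl20* (ATCG00660) and *rpl2* (ATCG01310), proteins of the plastid ribosome, and *clpP* (ATCG00670), the proteolytic subunit of the Clp protease of the stroma. Other members are given by their ID, without a role. In TAIR10.1 the plastid genome has 154478 bases. *ndhJ* lies at bases 48677 to 49153, *ndhK* at 49257 to 49934, *rpl20* at 68512 to 68865 and *clpP* at 69910 to 71882 with 3 coding exons, all on the minus strand. *cemA* lies at 60741 to 61430 on the plus strand. *rpl2* has a copy on the minus strand at 84337 to 85843 and a copy on the plus strand at 152806 to 154312.

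A read whose sequence occurs more than once in the genome cannot be assigned to 1 gene. After trimming, the reads were 70 bases long, and 65.3% of the 70-base windows of the plastid genome occurred once in the nuclear, mitochondrial and plastid genomes together. Of 131 plastid gene entries in RefSeq, 34 had no such window, namely 7 of 7 rRNA entries, 15 of 37 tRNA entries and 12 of 87 protein-coding entries. The parts of the split gene *rps12* count as separate entries here, and its part at bases 69611 to 69724 had 45 of 45 windows unique. Both copies of *rpl2* were identical over all 1507 bases and are the example among the named members, shown by the first 70 bases of each coding sequence, with the start codon in capitals. The same stretch of *clpP*, found once in the genome, is shown beside them.
rpl2, minus-strand copy: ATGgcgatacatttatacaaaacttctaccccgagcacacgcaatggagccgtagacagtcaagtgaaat
rpl2, plus-strand copy: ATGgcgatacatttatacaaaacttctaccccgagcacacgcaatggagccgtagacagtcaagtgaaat
clpP: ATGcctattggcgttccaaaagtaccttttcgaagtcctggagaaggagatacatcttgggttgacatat
ATCG01310, the *rpl2* ID, had 2 counts over the 12 libraries. *clpP* had 2882. Across all windows of *ndhJ*, *ndhK*, *cemA*, *rpl20* and *clpP*, 100% were unique. A count of 0 for a member of a repeated region therefore cannot be read as absence of expression.

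Of the 133 members, 20 had no count in any library, 15 had 1 to 9 counts in all, and 98 had 10 or more. At least 1 count in each of the 12 libraries was found for 84 members, and 63 had 1000 or more counts in all. The 12 libraries held 551038 plastid counts, from 6315 to 120937 in each, of 6616931 to 29798437 counts in all. The 2 members with the most reads, ATCG00020 with 103010 counts and ATCG00490 with 74815, held 32.3% of them. The 10 members with the most reads held 70.0%, and 7 to 10 of them were among the first 10 in each library.

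*NUP85* checked the labels. Its level was 30.8, 29.0 and 15.7 CPM in WT mock and 40.8, 42.2 and 26.6 CPM in WT ABA. In the libraries labelled nup85 it was 3.51, 1.81 and 27.4 CPM under mock and 3.42, 2.20 and 15.1 CPM after ABA. The level in the library labelled nup85 mock replicate 3 goes against its label, and the library labelled nup85 ABA replicate 3 lay between the genotypes. The main results are therefore also given from replicates 1 and 2. The summed level of 11 nuclear genes of photosynthesis, markers of green tissue, was 31287 to 46094 CPM in the mock and 13433 to 28861 CPM in the ABA libraries. The sum of 10 root markers was 64.4 to 102.2 CPM under mock and 64.8 to 86.0 CPM after ABA. By the 4-fold call defined below for the members, the light-harvesting gene *LHCB2.1* and the photosystem I gene *PSAD1* were lower after ABA in WT, *LHCB2.1* and the root marker *LRX1* were lower in nup85, and 0 markers were higher. By replicates 1 and 2 alone, 3 green tissue markers were called lower in each genotype, together with *LRX1* in WT and 3 root markers in nup85. The root markers went both ways. With all 3 replicates and the adjusted p alone (edgeR), 1 was higher and 1 lower in WT. *RBOHC* had 8.69 to 18.7 CPM in the mock and 22.1 to 31.0 CPM in the ABA libraries, a rise under 4-fold. What part these tissue markers have in the plastid results was not tested.

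Plastid reads were a far smaller part of all counts in ABA-treated than in mock seedlings. The ABA libraries were also deeper, with 13180349 to 29798437 counts against 6616931 to 14479752 under mock. Plastid rows took 0.614%, 1.83% and 0.440% of all counts in WT mock and 0.177%, 0.0479% and 0.169% in WT ABA. In the libraries labelled nup85 they took 0.617%, 0.716% and 0.197% under mock and 0.205%, 0.0573% and 0.0422% after ABA. The WT groups did not overlap. In nup85 the mock library of replicate 3 lay just under the ABA library of replicate 1. Counting error was small beside these differences. Relative to its value, the widest 95% Wilson interval was 0.0467% to 0.0491% around 0.0479%, in WT ABA replicate 2.

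Averaged over both genotypes, the plastid percent was 6.27-fold lower after ABA (log2 difference -2.65, n = 6 and 6, exact two-sided permutation test within genotype, p = 0.01, the smallest possible being 0.005). In WT it was 7.01-fold lower and in nup85 5.60-fold lower, with exact p of 0.1 and 0.2, where 3 libraries against 3 cannot go below 0.1. Replicates 1 and 2 gave an 8.40-fold lower percent over both genotypes, at the smallest p that 4 against 4 libraries allow within genotype (exact p = 0.0556), with an 11.5-fold lower percent in WT and a 6.13-fold lower one in nup85. These permutations count each library once, although libraries of WT and nup85 with the same replicate number deviated together. Averaged into 3 sets of same-numbered libraries for each treatment, a test added once the values were known, the plastid percent of the 3 ABA sets lay below that of the 3 mock sets (exact permutation p = 0.1, the smallest possible). No p given here with n = 6 and 6 could therefore pass 0.05 over sets. Fewer plastid transcripts per cell, fewer plastids and a smaller carry-over of RNA without a poly(A) tail cannot be told apart in such bulk samples.

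Mitochondrial reads and the main nuclear 18S rRNA row moved with the plastid reads. The nuclear *7SL* RNA, also listed as lacking a poly(A) tail, rose after ABA, as given below. Mitochondrial rows, which took 0.0161% to 1.92% of the counts, were 5.89-fold lower after ABA (log2 difference -2.56, n = 6 and 6, exact permutation p = 0.03). The 3 mitochondrial rows with the most reads, of 146, held 82.9% to 96.9% of the mitochondrial counts of a library. The mitochondrial values here therefore describe mostly these 3 rows. The row of the nuclear 18S rRNA with the most reads (AT3G41768) took 0.0848% to 2.63% under mock and 0.0293% to 0.188% after ABA, which was 6.71-fold lower (log2 difference -2.75, n = 6 and 6, exact permutation p = 0.02). With replicates 1 and 2 the falls were 9.32-fold for the mitochondrial rows and 12.5-fold for the 18S row (n = 4 and 4, exact permutation p = 0.0556 for each, the smallest possible), and over 3 sets against 3 of same-numbered libraries the exact permutation p was 0.2 for both. There were 0.696 to 2.33 plastid counts per count on that row in the mock libraries and 0.923 to 1.96 in the ABA libraries, a log2 difference of 0.10 (n = 6 and 6, exact permutation p = 0.75). Replicates 1 and 2 gave a log2 difference of 0.57 (n = 4 and 4, exact permutation p = 0.0556, the smallest possible). The number of plastid counts per mitochondrial count differed by -0.09 on the log2 scale (n = 6 and 6, exact permutation p = 0.79). These tests do not show that the ratios stayed the same. Both ratios were chosen with the values already seen.

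**Figure D1:**
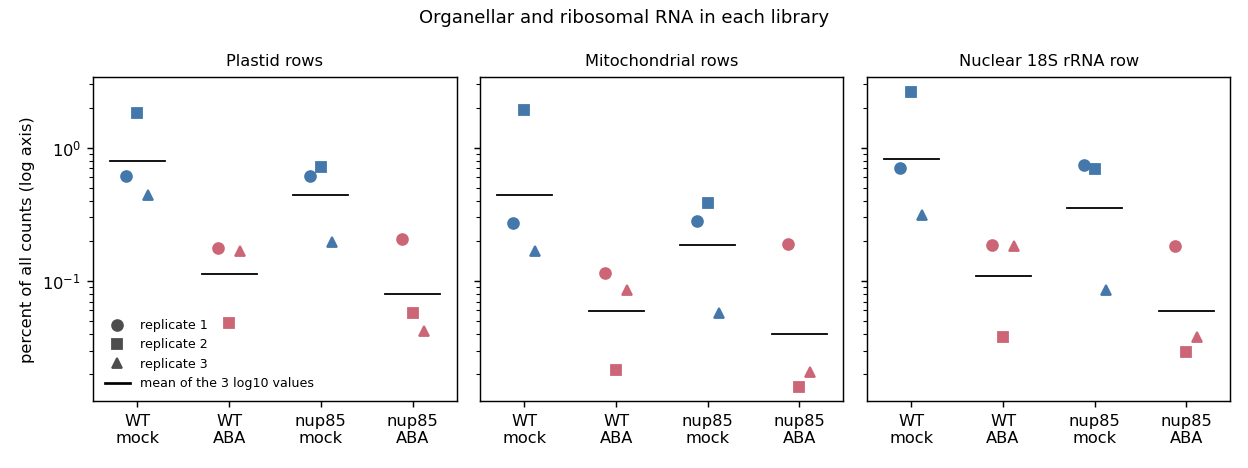
Percent of all counts (log axis) on plastid rows, on mitochondrial rows and on the nuclear 18S rRNA row in each of the 12 libraries, with a symbol for each replicate and a line at the mean of the logs of 3 libraries. The 3 classes keep nearly the same order of libraries, from WT mock replicate 2, the highest with 1.83% plastid counts, down to ABA libraries with less than 0.06%.

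The 3 classes also rose and fell together among libraries of the same treatment. Over the 6 mock libraries the plastid percent followed the 18S percent (Pearson r = 0.987, exact permutation p = 0.00694, adjusted over the 4 relations 0.0139, Spearman rho = 0.829, exact p = 0.0583, adjusted 0.0778) and the mitochondrial percent (r = 0.996, exact p = 0.00139, adjusted 0.00556, rho = 1.0, exact p = 0.00278, adjusted 0.0111). Without the 2 libraries farthest from the median, r was 0.918 and 0.992. Over the 6 ABA libraries r was 0.969 with the 18S percent (exact permutation p = 0.0903, adjusted 0.0903, rho = 0.771, exact p = 0.103, adjusted 0.103) and 0.963 with the mitochondrial percent (exact p = 0.0389, adjusted 0.0519, rho = 0.829, exact p = 0.0583, adjusted 0.0778). Without the 2 farthest libraries these were 0.994 and 0.937. All 3 quantities come from the same libraries and share their total counts. These permutations also treat the 6 libraries of a treatment as independent. Same-numbered libraries of WT and nup85 deviated together, so these p-values may be too small.

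Member by member, the level fell almost throughout. In WT, 71 of the 87 members that passed the filter on low counts were called lower after ABA and 0 higher by edgeR's quasi-likelihood test, where a call needs a Benjamini-Hochberg adjusted p under 0.05 over all genes and at least a 4-fold change. Of all 20062 genes tested, 3.43% were called lower and 4.06% higher. In nup85, 55 of 85 members were called lower and 0 higher, beside 2.88% lower and 3.87% higher among all 20001 genes. The adjusted p alone called 75 members in WT and 62 in nup85, against 14.9% and 13.8% of all genes. The median log2 fold change of the members tested was -2.93 in WT and -2.43 in nup85, beside -0.01 and 0.01 over all genes. Of the members called, 53 were called in both genotypes, 74.6% of those in WT and 96.4% of those in nup85.

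**Figure D2:**
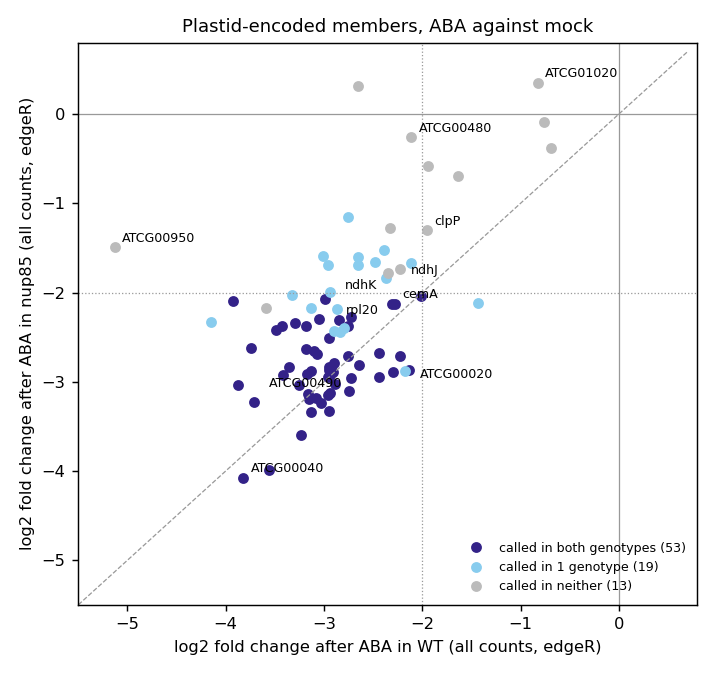
Log2 fold change of the level after ABA in WT (horizontal) and in nup85 (vertical), each point a member tested in both, coloured by its calls, with the 4-fold limit dotted. Of 85 members, 53 were called in both genotypes, 19 in 1 and 13 in neither, and ATCG01020 and ATCG00480 stand at the upper right, near no change in nup85.

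These calls leaned on single libraries. Leaving out a library gave 35 to 76 calls in WT and 35 to 74 in nup85, with 36 calls without WT mock replicate 2, 35 without WT ABA replicate 1, 41 without WT ABA replicate 2 and 35 without nup85 mock replicate 2. Replicates 1 and 2 alone gave 80 of 89 members in WT, which held the 71 called from all 3, and 61 of 88 in nup85, which held 51 of the 55, where 4.17% and 4.21% of all genes were lower. The 3 ABA libraries lay below the 3 mock libraries for 78 of 87 members in WT and 61 of 85 in nup85, while 25.4% and 22.8% of all genes did so. A member's level on this scale carries the fall of the plastid total with it, and that total moved with the 18S and mitochondrial reads as given above.

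ATCG00020 had 1426, 1838 and 775.3 CPM in WT mock and 363.0, 95.4 and 430.0 CPM in WT ABA. In nup85 it had 1470, 1647 and 312 CPM under mock and 302, 113 and 69.3 CPM after ABA. No ABA library reached a mock library of its genotype, though the margin in nup85 was narrow. The fall was 4.39-fold in WT (log2 fold change -2.13, SE 0.62, adjusted p = 0.0388 from edgeR) and 7.33-fold in nup85 (-2.87, SE 0.76, adjusted p = 0.0290).

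ATCG00490 had 928, 1927 and 623.8 CPM in WT mock and 215, 52.4 and 269 CPM in WT ABA. In nup85 it had 972, 1126 and 280.4 CPM under mock and 223, 61.9 and 62.5 CPM after ABA. Here too the groups did not overlap within a genotype. It fell 6.23-fold in WT (log2 fold change -2.64, SE 0.70, adjusted p = 0.0295 from edgeR) and 7.03-fold in nup85 (-2.81, SE 0.70, adjusted p = 0.0239).

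The ribosomal protein gene *rpl20* had 12.8, 43.1 and 8.43 CPM in WT mock and 2.92, 1.29 and 4.03 CPM in WT ABA, and in nup85 9.01, 14.0 and 3.86 CPM under mock and 3.42, 1.17 and 0.994 CPM after ABA. Neither genotype's groups overlapped, by a narrow margin in nup85, and WT mock replicate 2 stood far above the other mock libraries. It fell 7.22-fold in WT (log2 fold change -2.85, SE 0.71, adjusted p = 0.0234 from edgeR) and 4.94-fold in nup85 (-2.30, SE 0.60, adjusted p = 0.0287).

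The envelope protein gene *cemA* had 27.8, 60.9 and 28.9 CPM in WT mock and 7.55, 5.01 and 10.6 CPM in WT ABA. In nup85 it had 20.5, 35.6 and 18.1 CPM under mock and 7.82, 4.33 and 4.89 CPM after ABA. Its groups were well apart in both genotypes, and it had the smallest standard errors of the named members. It fell 4.84-fold in WT (log2 fold change -2.28, SE 0.42, adjusted p = 0.00880 from edgeR) and 4.36-fold in nup85 (-2.13, SE 0.33, adjusted p = 0.00489).

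The NDH subunits were not called in either genotype. *ndhK* had 9.47, 37.8 and 9.81 CPM in WT mock and 5.06, 0.910 and 4.46 CPM in WT ABA, and in nup85 9.58, 12.2 and 7.29 CPM under mock and 5.66, 1.51 and 1.57 CPM after ABA. *ndhJ* had 6.78, 19.3 and 5.66 CPM in WT mock and 3.65, 0.455 and 2.18 CPM in WT ABA, and in nup85 8.44, 9.17 and 3.15 CPM under mock and 4.54, 1.38 and 0.663 CPM after ABA. Only *ndhJ* in nup85 overlapped between mock and ABA. The log2 fold changes of *ndhK* were -2.35 in WT (SE 0.76, adjusted p = 0.0537 from edgeR) and -1.78 in nup85 (SE 0.52, adjusted p = 0.0405), and those of *ndhJ* were -2.23 (SE 0.73, adjusted p = 0.0564) and -1.73 (SE 0.70, adjusted p = 0.103). The 2 genes had 1213 and 756 counts in all. With replicates 1 and 2 both were called in WT, at adjusted p of 0.0313 for *ndhK* and 0.0416 for *ndhJ*.

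The protease gene *clpP* changed least of the named members. It had 26.2, 71.9 and 21.3 CPM in WT mock and 12.6, 6.30 and 10.8 CPM in WT ABA. In nup85 it had 21.0, 29.2 and 13.7 CPM under mock and 13.9, 7.63 and 5.01 CPM after ABA. WT groups were apart, and those of nup85 overlapped by a single library. The change was 3.86-fold in WT (log2 fold change -1.95, SE 0.51, adjusted p = 0.0272 from edgeR) and 2.47-fold in nup85 (-1.30, SE 0.39, adjusted p = 0.0431), past the p threshold but under the 4-fold limit. As CPM per kilobase of coding sequence in RefSeq (RPKM), the mean over 3 WT mock libraries was 67.4 for *clpP* and 60.5 for *rpl20*, and over 3 WT ABA libraries 16.8 for *clpP* and 7.76 for *rpl20*.

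No member was called between the genotypes. Between the libraries labelled nup85 and WT, 0 of 89 members were called under mock and 0 of 80 after ABA at an adjusted p under 0.05 and 1.5-fold, and 0% of all genes were called in either comparison. Unadjusted p under 0.05 were found for 11 members under mock and 0 after ABA with edgeR, beside 1010 of 19606 and 995 of 20270 genes. DESeq2 also called 0 members in both, while it called 35 and 96 genes. With DESeq2, 29 and 2 members had an unadjusted p under 0.05, beside 831 and 1084 of all genes tested. When replicate numbers entered the fit as a block, 74 members under mock and 14 after ABA had an unadjusted p under 0.05, beside 3067 and 3528 genes in all. None of the members was called with the block (edgeR), beside 0.311% and 1.37% of all genes, the lowest adjusted p being 0.0597 under mock and 0.181 after ABA. The median log2 fold change of the members was -0.99 under mock and -0.57 after ABA. Without WT mock replicate 2, the library with the most plastid reads, the mock median was -0.19. Other left-out libraries gave mock medians of -1.30 to -0.78. Replicates 1 and 2 gave a median of -1.06 under mock and of -0.05 after ABA. There, 25 of 90 and 0 of 78 members had an unadjusted p under 0.05 (edgeR). Among all genes these were 2750 of 19390 and 4284 of 19869.

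The plastid percent of all counts was 1.78-fold lower in nup85 under mock (log2 difference -0.83, n = 3 and 3, exact permutation p = 0.6) and 1.42-fold lower after ABA (-0.51, n = 3 and 3, exact permutation p = 0.9), with overlapping groups in both. These permutations did not use the pairing of the genotypes by replicate number. The test of whether the ABA change of a member differed between the genotypes called 0 of 90 members, with 0 at an unadjusted p under 0.05 (edgeR interaction, 12 libraries), and 0% of all genes. DESeq2 called 0 members as well. The median interaction was 0.46 on the log2 scale, and -0.36 without WT mock replicate 2 and -0.32 without nup85 ABA replicate 1. The other left-out libraries gave 0.14 to 0.76. With replicates 1 and 2 it was 0.86, positive for 83 of 90 members, of which 1 had an unadjusted p under 0.05 and 0 were called by edgeR.

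Some members also differed in their share of the plastid reads between ABA and mock libraries, mostly in the same direction in both genotypes. The planned test, given below, called few of them. Shares of plastid counts take out how much plastid RNA a library held, although they were compared between libraries that held from 6315 to 120937 plastid counts, and the part of that difference in them was not tested. For the 90 members in the fit of all 12 libraries, the difference of the mean log2 share (0.5 added to each count) was averaged over both genotypes. It ranged from -2.41 to 2.53, and 75 members stayed within 2-fold, 8 rose in share by 2-fold or more as a plain difference and 7 fell by as much. Across members, the difference in WT and that in nup85 had a Pearson r of 0.834 and a Spearman rho of 0.780 (n = 90 members, which share the plastid totals of their libraries), and 72 of 90 had the same sign. WT and nup85 had no library in common, but their same-numbered libraries deviated together, so the differences in WT and in nup85 are not independent. The nup85 difference also includes mock replicate 3, whose *NUP85* level went against its label.

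**Figure D3:**
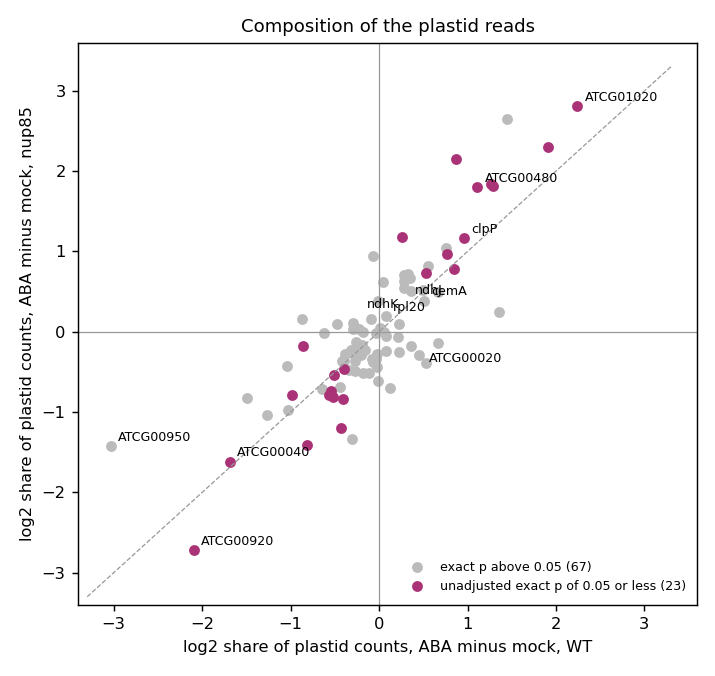
Difference between ABA and mock of the mean log2 share of plastid counts in WT (horizontal) and in nup85 (vertical), each point one of the 90 members. ATCG01020, ATCG00480 and *clpP* gained share in both genotypes, ATCG00040 and ATCG00920 lost share in both, and *rpl20* sits near 0.

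By an exact two-sided permutation test within genotype on all 12 libraries, a test added once the values were known, 23 of the 90 members had an unadjusted p of 0.05 or less, 11 with a higher and 12 with a lower share. Over the 3 sets of each treatment, 24 of the 90 members reached the smallest possible p of 0.1 (exact permutation test), 21 of them among the 23. Both tests use the same values, so this overlap is no independent support. On this scale nearly all nuclear genes stand higher after ABA, so that of all 20574 genes 89.1% passed with a higher and 0.209% with a lower value. The planned test, edgeR on the whole table with the plastid total as library size, has its spread set by those nuclear genes. It called 1 of 87 members higher in WT, where 75.1% of all genes were called higher, and 2 of 85 in nup85, beside 62.6%. None was called lower (edgeR, 0.14% and 0.095% of all genes). Unadjusted p under 0.05 were found for 2 of the 87 members in WT and 4 of the 85 in nup85 (edgeR). Since most genes passed on this scale, the adjustment over all genes corrects little, and an adjusted p of a member is weak evidence. ATCG01020 was the member called in both.

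ATCG01020 held 0.307%, 0.460% and 0.278% of the plastid counts in WT mock and 2.02%, 4.21% and 0.490% in WT ABA. In nup85 it held 0.191%, 0.266% and 0.671% under mock and 1.15%, 4.28% and 2.39% after ABA. All ABA libraries lay above all mock libraries of their genotype. The mean rise over both genotypes was 5.76-fold (log2 difference 2.53, n = 6 and 6, exact permutation p = 0.005, the smallest possible, from edgeR adjusted p = 0.0258 in WT and 0.0256 in nup85). ATCG01020 was picked from the 90 members by this same difference, so its unadjusted permutation p is no independent support. The edgeR call in WT was lost with replicates 1 and 2 (log2 fold change 3.02, adjusted p = 0.0997), with the replicate block (2.27, adjusted p = 0.304) and without WT mock replicate 1, 2 or 3 or WT ABA replicate 2 (adjusted p = 0.136, 0.0626, 0.0831 and 0.0878). In nup85 it held with replicates 1 and 2 (3.57, adjusted p = 0.0366) and was lost without nup85 mock replicate 1 or 2 or nup85 ABA replicate 2 or 3 (adjusted p = 0.196, 0.182, 0.147 and 0.114). With a library left out, the log2 fold change was 1.85 to 3.16 in WT and 2.23 to 3.51 in nup85. Its level in CPM did not pass the test, with log2 fold changes of -0.82 in WT (SE 0.78, adjusted p = 0.451) and 0.35 in nup85 (SE 0.30, adjusted p = 0.414).

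ATCG00480 was the member with the most reads among those whose mean share rose by 2-fold or more. It held 1.36%, 3.37% and 1.67% of the plastid counts in WT mock and 6.31%, 5.38% and 2.26% in WT ABA. In nup85 it held 1.43%, 1.16% and 2.52% under mock and 6.95%, 5.17% and 4.96% after ABA. Only WT ABA replicate 3 fell within the range of the mock libraries. Its share was 2.75-fold higher on average (log2 difference 1.46, n = 6 and 6, exact permutation p = 0.01), without a call from edgeR (adjusted p = 0.294 in WT and 0.113 in nup85).

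*clpP* held 0.428%, 0.394% and 0.483% of the plastid counts in WT mock and 0.716%, 1.31% and 0.639% in WT ABA. In nup85 it held 0.340%, 0.408% and 0.693% under mock and 0.679%, 1.33% and 1.19% after ABA. The WT groups were apart, and in nup85 the ABA library of replicate 1 lay just under the mock library of replicate 3. Its share was 2.09-fold higher (log2 difference 1.06, n = 6 and 6, exact permutation p = 0.01), and edgeR did not call it (adjusted p = 0.351 in WT and 0.269 in nup85).

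The other named members kept their share more closely. The mean log2 differences were 0.44 for *cemA* (n = 6 and 6, exact permutation p = 0.275), 0.43 for *ndhK* (p = 0.115), 0.42 for *ndhJ* (p = 0.065), and 0.13 for *rpl20* (p = 0.405), all from the same exact test. The same holds for ATCG00020 at 0.08 (exact permutation p = 0.79) and ATCG00490 at -0.19 (exact permutation p = 0.22).

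ATCG00040 moved the other way. It held 1.34%, 1.20% and 1.88% of the plastid counts in WT mock and 0.380%, 0.222% and 1.03% in WT ABA. In nup85 it held 0.994%, 1.44% and 2.06% under mock and 0.316%, 0.372% and 0.844% after ABA. No ABA library reached a mock library of its genotype. The share was 3.15-fold lower (log2 difference -1.65, n = 6 and 6, exact permutation p = 0.005), and the level fell 14.1-fold in WT (adjusted p = 0.0234 from edgeR) and 16.9-fold in nup85 (adjusted p = 0.00240). The share of ATCG00920 was 5.30-fold lower (log2 difference -2.41, n = 6 and 6, exact permutation p = 0.03), but 1264 of its 1431 counts came from WT mock replicate 2. ATCG00040 and ATCG00920 were also picked by their difference in share, so their unadjusted permutation p-values are no independent support.

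**Figure D4:**
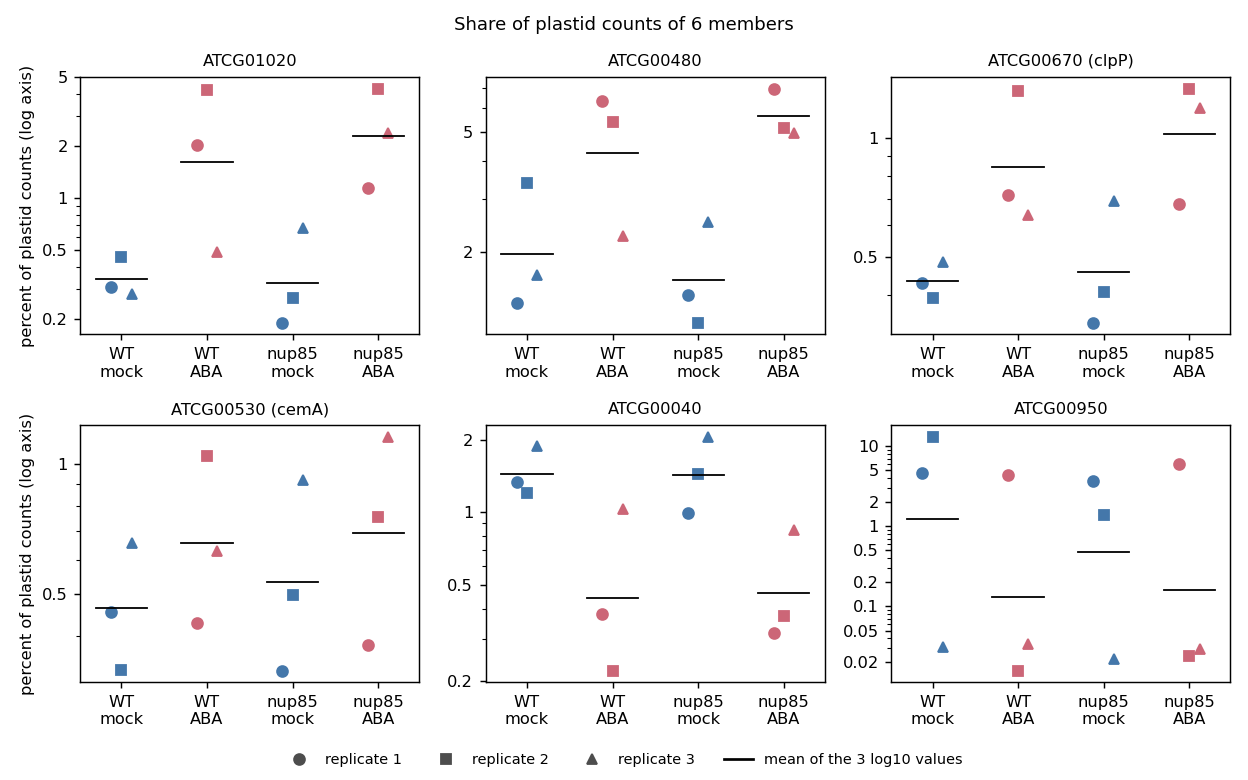
Percent of plastid counts (log axis) of 6 members in each of the 12 libraries, with a symbol for each replicate and a line at the mean of the logs. ATCG01020, ATCG00480 and *clpP* stand higher after ABA and ATCG00040 lower, *cemA* overlaps between treatments, and ATCG00950 ranges between 0.0158% and 13.2%.

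The same shifts were larger in replicates 1 and 2 than in all 3. ATCG01020 rose 8.73-fold in share there, ATCG00480 3.56-fold and *clpP* 2.46-fold, and ATCG00040 was 3.85-fold lower. In replicate 3 the log2 differences between single libraries were 0.82 in WT and 1.83 in nup85 for ATCG01020, 0.43 and 0.98 for ATCG00480, 0.40 and 0.78 for *clpP*, and -0.87 and -1.28 for ATCG00040, in the same directions. ATCG01020 and ATCG00040 were picked by their shift over all 3 replicates, so replicate 3 is no independent check of them. Its nup85 pair also holds the mock library whose *NUP85* level went against its label. Of the 90 members, 46 had the same sign in replicate 3 of both genotypes as in replicates 1 and 2.

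ATCG00950, singled out after its values were seen, was the sixth member by reads and varied widely among libraries of the same group. It held 4.64%, 13.2% and 0.0314% of the plastid counts in WT mock, 4.32%, 0.0158% and 0.0337% in WT ABA, 3.68%, 1.40% and 0.0218% in nup85 mock, and 6.05%, 0.0240% and 0.0294% in nup85 ABA. It was thus high in replicate 1 of every group and in both mock libraries of replicate 2, and near 0 in the other 6 libraries, which held 1 to 20 counts each. Without it, the plastid percent of all 6 ABA libraries lay below all 6 mock libraries, 6.14-fold lower on average (log2 difference -2.62, n = 6 and 6, exact permutation p = 0.005). The margin was narrow, with 0.193% in nup85 ABA replicate 1 against 0.197% in nup85 mock replicate 3, whose *NUP85* level went against its label.

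Nuclear genes that serve plastid transcription also fell in part. All 6 sigma factor genes were tested, and 4 of them were lower after ABA in each genotype at an adjusted p under 0.05, where 14.9% of all genes were lower in WT and 13.8% in nup85. *SIG1* (AT1G64860) had 124, 113 and 219 CPM in WT mock and 31.9, 31.0 and 46.7 CPM in WT ABA, and in nup85 191, 200.0 and 244 CPM under mock and 42.6, 51.9 and 54.9 CPM after ABA. With all 3 replicates it was the only sigma factor gene past 4-fold, with log2 fold changes of -2.02 in WT (SE 0.35, adjusted p = 0.00676 from edgeR) and -2.09 in nup85 (SE 0.23, adjusted p = 0.00170). With replicates 1 and 2 it was under 4-fold in WT (-1.93, adjusted p = 0.000252), while *SIG5*, a stress-responsive sigma factor, was called lower in WT (-2.57, adjusted p = 0.00118 from edgeR) and nup85 (-2.95, adjusted p = 3.37e-06), and all 6 sigma factor genes were lower in each genotype at an adjusted p under 0.05. With all 3 replicates, *SIG2*, *SIG4* and *SIG6* changed by -1.12, -0.96 and -0.88 in WT and by -0.94, -0.90 and -0.75 in nup85. *SIG5* did not pass in WT (-1.47, adjusted p = 0.342) or nup85 (-1.08, adjusted p = 0.487). In replicate 3 it had 184 CPM in WT mock, 77.3 CPM in WT ABA, 182 CPM in nup85 mock and 116 CPM in nup85 ABA, each above the other libraries of its group.

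The 3 genes of the phage-type organelle polymerases, *RPOTP* of plastids, *RPOTM* of mitochondria and *RPOTMP* of both, did not pass the test in either genotype, with log2 fold changes from -0.45 to 0.34 in WT and from -0.38 to 0.18 in nup85. Of 12 genes for proteins bound to the bacterial-type polymerase, 9 were lower in WT and 7 in nup85 at an adjusted p under 0.05, and 0 were higher, with medians of -0.99 and -0.69. *TRXZ*, a thioredoxin of that complex, changed most, by -1.67 in WT (SE 0.19, adjusted p = 0.00199 from edgeR) and by -1.38 in nup85 (SE 0.21, adjusted p = 0.00456). Of 6 genes of plastid RNA turnover, 1 was lower in each genotype, close to the 14.9% and 13.8% of all genes, namely the endonuclease gene *RNEE* in WT (-0.59, adjusted p = 0.0356) and the RNA-binding protein gene *CSP41A* in nup85 (-1.03, adjusted p = 0.0155).

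The alarmone ppGpp, made and degraded by RSH enzymes, lowers transcription in bacteria and plastids. *RSH3* rose by 0.91 in WT (SE 0.24, adjusted p = 0.0295 from edgeR) and by 0.92 in nup85 (SE 0.24, adjusted p = 0.0275), with 72.0 to 110.4 CPM in the 6 mock libraries and 147 to 210.5 CPM in the 6 ABA libraries. *RSH2* rose in WT by 0.77 (adjusted p = 0.0450), with 0.63 in nup85 (adjusted p = 0.0750). *CRSH*, the calcium-activated synthase, fell in both, by 1.21 and 1.08, and *RSH1* fell in nup85 by 0.74 (adjusted p = 0.0233), with -0.60 in WT (adjusted p = 0.131). By this adjusted p alone, 16.5% of all genes were higher in WT and 15.4% in nup85. With all 3 replicates, 0 of the 31 genes of these 5 lists were called between the genotypes or in the interaction (edgeR). With replicates 1 and 2, *CSP41A* was called lower in nup85 after ABA (-0.68, adjusted p = 0.0394).

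**Figure D5:**
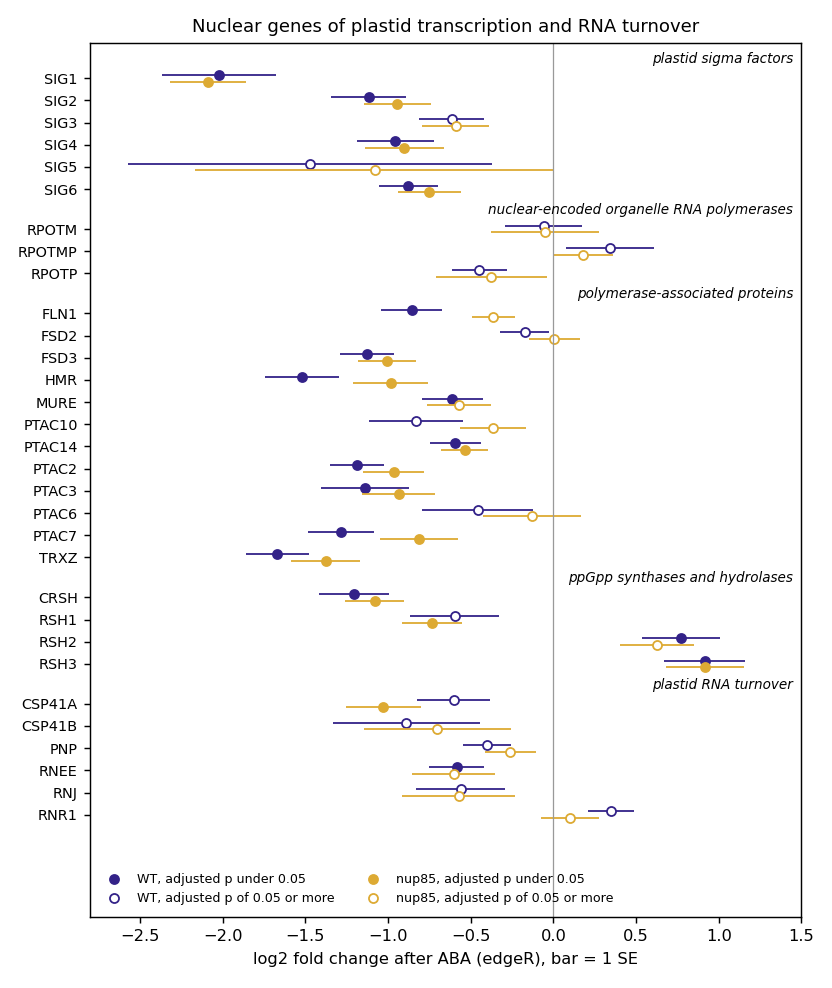
Log2 fold change after ABA (edgeR) of 31 nuclear genes of plastid transcription, ppGpp metabolism and plastid RNA turnover in WT and nup85, bars 1 SE, filled points with an adjusted p under 0.05. Sigma factors and polymerase-associated proteins lie mostly between -0.5 and -2, the phage-type polymerases near 0, and *RSH2* and *RSH3* above 0.

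Of the 8 nuclear RNAs listed as lacking a poly(A) tail, 5 passed the filter. In WT, 3 were called lower, an 18S row and both 5.8S rows, and 1 higher, and in nup85 0 were called lower and 1 higher, beside 3.43% and 2.88% of all genes called lower. The row called higher was the *7SL* RNA of the signal recognition particle (AT4G02970), at 12.4 to 45.8 CPM in the mock and 63.7 to 181 CPM in the ABA libraries, without overlap. Its log2 fold change was 2.17 in WT (SE 0.26, adjusted p = 0.00242 from edgeR) and 2.59 in nup85 (SE 0.54, adjusted p = 0.0134). From replicates 1 and 2 its rise was 1.88 in WT and 1.53 in nup85, past the adjusted p of edgeR but under 4-fold, and 4 rows of the list were called lower in WT and 1 in nup85. Between the genotypes *7SL* was not called with all 3 replicates, was called lower in nup85 under mock with the replicate block (-0.96, adjusted p = 0.0300 from edgeR) and lower in nup85 after ABA with replicates 1 and 2 (-1.29, adjusted p = 0.0108).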

How the data were processed

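RNA-seq reads of 12 libraries were trimmed by the authors to bases 11 to 80, mapped to TAIR10 with TopHat2 and counted per gene with featureCounts. The deposited values are these raw read counts, without normalization. How RNA was selected, and the strand and multi-mapping settings of the counting, are not given in the sources used here. Groups were taken from the labels.

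Each comparison was fitted on its own 6 libraries with edgeR 4.0.16 in R 4.3.3 (TMM, filterByExpr with a minimum count of 10, quasi-likelihood test, Benjamini-Hochberg over all genes), the interaction on all 12. Calls needed an adjusted p under 0.05 and 4-fold (ABA) or 1.5-fold (genotype). Plastid-scale fits used the plastid total as library size. Alternatives included DESeq2 1.42.0, other scalings, a replicate block and left-out libraries. The fits were tested on simulated data. The members and lists were chosen with earlier results of these data known. Wilson intervals have 95% confidence and cover counting error only. Same-numbered libraries of both genotypes deviated together (correlations of 0.49, 0.48 and 0.73 under mock and 0.64, 0.56 and 0.76 after ABA over 20574 genes), so replicate numbers pair the genotype comparisons.

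Members by rule were the 10 with the most counts, those with the largest changes, and those that could be named, of which at most 2 unnamed IDs per direction are printed. A level per kilobase for every member and groups of members by product could not be formed, because the sources pair only 7 IDs with names. The results of 1 of these are not reported here. The nuclear lists hold 6 sigma factors, 3 phage-type polymerases, 12 polymerase-associated proteins, 4 ppGpp enzymes, 6 genes of RNA turnover, 11 green tissue markers, 10 root markers and 8 RNAs without a poly(A) tail.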

Additional observations from a re-analysis of the deposited data

How the results depend on the processing

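Of the calls on levels, the number of members kept within 1.5 times of 71 in WT and 55 in nup85 under DESeq2, RLE, upper-quartile, nuclear-only and library-size scaling, without a filter, with the adjusted p alone and with replicates 1 and 2. Upper-quartile scaling moved the median of all genes in WT to -0.15, and members stayed lower relative to it. The replicate block, for which ABA and mock libraries share only a number, gave 36 calls in WT (38 with the adjusted p alone, chosen after seeing the data) and 60 in nup85. Leaving out a library gave 35 to 76 calls in WT and 35 to 74 in nup85, and 0 in both genotype comparisons and the interaction. The plastid percent had log2 differences of -2.99 to -2.34 with a library left out, -2.66 over nuclear counts or without ATCG00020, and -2.65 with the replicate block (6 of 6 pairs lower, exact sign-flip p = 0.03125, the smallest possible). Over sets of same-numbered libraries, chosen after seeing the data, the difference of -2.65 could not pass the threshold either (exact permutation p = 0.1), and that of -3.07 with replicates 1 and 2 could not. Its genotype difference after ABA turned to 0.24 with replicates 1 and 2, and the log2 plastid counts per mitochondrial count to 0.15. On plastid counts, 1 member in WT became 3 with TMM over plastid rows, 3 without a filter, 2 without ATCG00950 in the total (chosen after seeing the data), 0 with the block, 0 with replicates 1 and 2, and 0 to 4 with a library left out. The 2 in nup85 became 7 with TMM over plastid rows, 5 with the block, 1 with replicates 1 and 2, and 0 to 7 with a library left out. Genotype comparisons on plastid counts gave 0 members throughout, and the block changed no other count of members. Among the nuclear lists, the block moved the non-poly(A) RNAs called lower in WT from 3 to 1, put *SIG1* in WT just under 4-fold (adjusted p = 0.00353) and *SIG5* past it in WT (-2.03, adjusted p = 0.0168) and nup85 (-2.12, adjusted p = 0.0397), and ended the call of *LRX1* in nup85 (-1.98, all from edgeR). By the adjusted p alone, sigma factors lower after ABA went from 4 to 6 in each genotype, and *RNEE* in WT lost its call (adjusted p = 0.0539). The cause of these changes was not tested. Restricting to protein-coding members was not run, since their IDs could not be told from the sources. Low plastid counts limit the ABA libraries, the lowest holding 6315.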
